A study of Mus musculus with 18 samples.

Results

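The replication-dependent core histone genes were followed through peak lists of 5 ChIP-seq targets from mouse liver. All RefSeq protein-coding genes of mm10 were taken whose symbol is H2ac, H2bc, H3c or H4c followed by a number, 57 by symbol and 1, H4bc24, through its older name Hist1h2br. That gave 58 of 21887 genes, of which 17 encode H2A, 17 H2B, 12 H3 and 12 H4. They lie in a chromosome 13 cluster of 48 genes (chr13:21715711-23934913) and a chromosome 3 cluster of 10 genes (chr3:96219885-96270192). The study compared knockout livers (KO) with CTCF fl/fl Albcre+ genotype and wild type livers (WT) with CTCF fl/fl Albcre- genotype, so that both carried floxed Ctcf alleles. All animals were C57BL/6 mice of 8 weeks. Cre under the albumin promoter acts in hepatocytes, and other liver cells keep CTCF. There were 3 KO and 3 WT libraries for H3K27ac, 2 and 2 for PPARg, 2 and 2 for CTCF, and 1 and 1 for both H3K4me3 and H3K27me3. The 4 CTCF libraries and PPARg KO7, KO8 and WT 2 were tagmentation libraries of male mice fasted overnight after chow. The others were ligation libraries of animals of unstated sex, and the growth text of these samples is about neural stem cells, whereas their tissue label is liver.

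Core histones form the protein spool of the nucleosome: H3 and H4 make its central tetramer and H2A with H2B its flanking dimers. Replication-dependent histone genes are short, lack introns in their coding part and sit in clusters. They are transcribed mainly in S phase, under the coactivator NPAT, and their mRNAs end in a stem-loop bound by SLBP in place of a poly(A) tail. H3K27ac marks active promoters and enhancers, H3K4me3 marks promoters, and H3K27me3 is the mark of Polycomb silencing. PPARg is the nuclear receptor known for its part in lipid storage. CTCF binds DNA through zinc fingers at insulators and at boundaries of chromatin domains.

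Promoter sequences are shown for the members on which the comparisons turn: H4c11 and H4c12, where H3K27ac peaks were called mainly or only in KO, H2ac7 with the widest difference in H3K27ac, H2ac18 with the smallest adjusted p for PPARg, and H2ac1, which had no peak at all. Each runs from 250 bases before the annotated start to 30 bases from it, on the gene's strand, from RefSeq on GRCm38.p6. Capitals mark the TATA box (TATAAA), the CCAAT box (CCAAT) and the octamer (ATTTGCAT), on either strand. The labels name letters alone. TATAAA lay at bases -2 to 4 from the annotated start in H4c11 and at 12 to 17 in H2ac18. It lay at -16 to -11 in H4c12 and at -32 to -27 in H2ac1. H4c11 is taken from chr13:21734784-21735063 (plus strand), H4c12 from chr13:21750524-21750803 (minus), H2ac7 from chr13:23574131-23574410 (plus), H2ac18 from chr3:96245247-96245526 (plus) and H2ac1 from chr13:23934187-23934466 (plus).
H4c11: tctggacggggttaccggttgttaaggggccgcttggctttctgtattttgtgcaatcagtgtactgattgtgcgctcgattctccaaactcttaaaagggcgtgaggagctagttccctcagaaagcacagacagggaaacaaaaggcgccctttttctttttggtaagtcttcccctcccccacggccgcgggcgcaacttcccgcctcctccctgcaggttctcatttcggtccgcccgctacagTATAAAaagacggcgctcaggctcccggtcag
H4c12: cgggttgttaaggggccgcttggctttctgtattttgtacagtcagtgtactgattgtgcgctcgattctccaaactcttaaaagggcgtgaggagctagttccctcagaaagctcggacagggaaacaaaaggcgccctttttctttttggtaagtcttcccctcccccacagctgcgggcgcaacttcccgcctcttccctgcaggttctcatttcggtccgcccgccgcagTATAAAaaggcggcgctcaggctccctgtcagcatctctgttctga
H2ac7: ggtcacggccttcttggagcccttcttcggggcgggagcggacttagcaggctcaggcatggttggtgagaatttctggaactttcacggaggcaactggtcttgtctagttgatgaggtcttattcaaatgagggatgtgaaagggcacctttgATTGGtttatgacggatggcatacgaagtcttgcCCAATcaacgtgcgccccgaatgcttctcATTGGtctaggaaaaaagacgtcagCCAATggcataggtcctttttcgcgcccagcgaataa
H2ac18: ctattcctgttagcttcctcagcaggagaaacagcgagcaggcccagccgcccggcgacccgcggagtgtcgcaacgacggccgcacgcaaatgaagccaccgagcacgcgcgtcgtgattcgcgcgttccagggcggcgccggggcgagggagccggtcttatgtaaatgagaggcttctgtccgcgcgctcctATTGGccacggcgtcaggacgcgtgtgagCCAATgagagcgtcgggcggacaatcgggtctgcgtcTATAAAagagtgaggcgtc
H2ac1: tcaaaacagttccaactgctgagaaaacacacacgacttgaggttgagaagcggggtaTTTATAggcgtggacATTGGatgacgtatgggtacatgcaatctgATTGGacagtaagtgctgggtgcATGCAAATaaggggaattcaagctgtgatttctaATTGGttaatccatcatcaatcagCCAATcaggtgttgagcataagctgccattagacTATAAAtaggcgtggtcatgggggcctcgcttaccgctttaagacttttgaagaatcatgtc

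The promoter table held 53 of the 58 members, with 54 promoters; H2bc21, H4c14, H3c7, H2bc4 and H3c1 were not matched. Over its 300 bases per promoter, a CCAAT box on either strand was found in 85.2% of member promoters and in 38.2% of all promoters. It was present in 17 of 17 H2A, 16 of 16 H2B and 10 of 10 H3 promoters, but in 3 of 11 H4 promoters. TATAAA was found in 55.6% of member promoters against 12.6% of all, and the octamer in 24.1% against 1.7%; the 13 promoters with an octamer belonged to H2A (6) and H2B (7) genes. The nuclear receptor half-site AGGTCA was found in 3.7% of member promoters and 14.7% of all promoters. These motif matches describe letters and are no binding data. An H2A and an H2B gene faced away from each other in 10 pairs, with at most 280 bases between their annotated ends, so such pairs share promoter bases. Promoters of H4c11 and H4c12 were 87.6% identical, those of H3c15 and H3c14 90.2%, those of H4c17 and H4c18 99.0%, and those of H2bc23 and H4bc24 100%. Whether reads that fit several copies were kept is not given in the sources used here, so values of these near-identical genes are uncertain.

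Each member was measured over its span with 2 kb each side, as bases or percent of that window under a peak. The median span was 487 bp. Neighbouring windows overlap: the 58 windows merge into 24 stretches of 228.4 kb in all, and a peak between paired genes counts for both where genes are counted. Across the whole lists, H3K27ac peaks covered 79.47, 91.2 and 125.75 Mb in KO 2, KO 3 and KO 4, against 84.78, 91.53 and 78.21 Mb in WT 1, WT 2 and WT 4. KO 4 stood apart as the widest list. The lists carry no read of the Ctcf gene itself. CTCF lists held 18597 and 20323 peaks in KO160 and KO163, and 27585 and 24566 in WT164 and WT165, and 72.3% of regions called in both WT were called in all 4 libraries. Read depth is unknown from peak lists. Nothing in the labels says how animals and libraries correspond, so p-values measure the spread between libraries. In whole liver, signal from fewer cells cannot be told apart from less signal per cell.

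**Figure D1:**
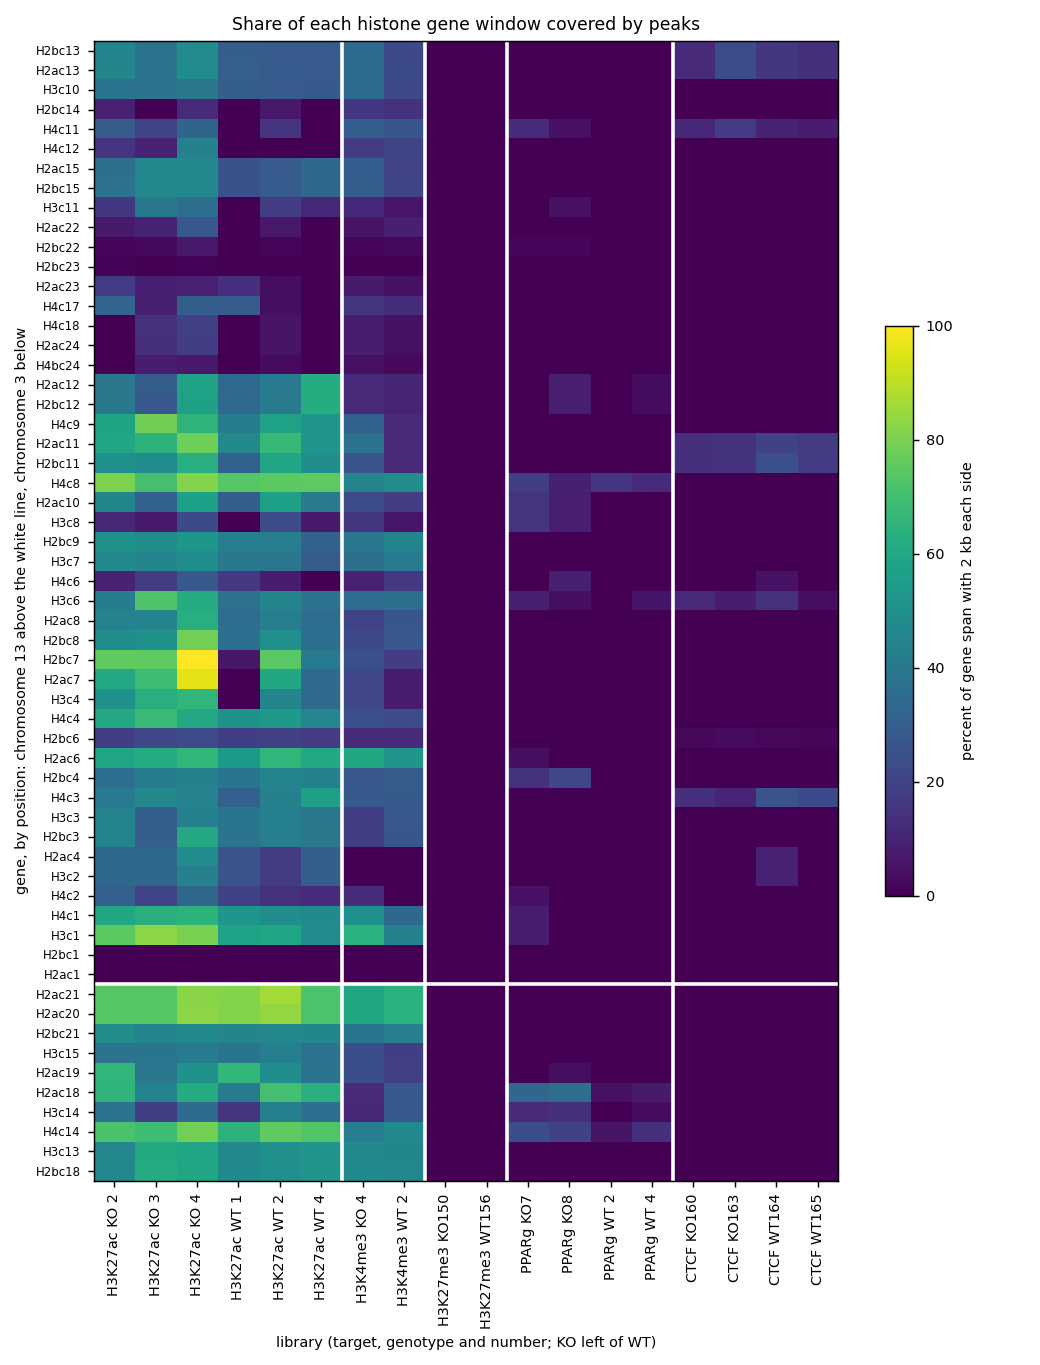
Percent of each histone gene's window (span with 2 kb each side) under a peak, for 58 genes (rows, in order of position) in 18 libraries (columns, KO left of WT for each target). H3K27ac and H3K4me3 fill most rows, H3K27me3 none, and PPARg and CTCF a few; H2bc1 and H2ac1 are empty throughout.

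Histone genes were widely acetylated in both genotypes. A peak of H3K27ac touched 51 of 58 member windows (87.9%) in every KO library and 40 (69.0%) in every WT library, against 57.4% of all genes in KO and 55.8% in WT. The broadest cover by bases was at H2bc6, H2bc4, H2ac21 and H2ac20; H2bc6 and H2bc4 are annotated with spans of 37455 and 8282 bp, far longer than most members. H2ac21 was covered over 73.9%, 74.2% and 82.4% of its window in KO 2, KO 3 and KO 4, and over 81.5%, 86.1% and 71.8% in WT 1, WT 2 and WT 4. H2ac20, its neighbour, shared that region and gave 76.9% ± 4.9 in KO and 79.0% ± 6.4 in WT (SD, n = 3 each). These H2A genes on chromosome 3 therefore overlapped between genotypes. H2bc1 and H2ac1, a divergent pair known in mouse for expression in testis, had no peak of any target.

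Over the merged windows, H3K27ac peaks covered 63.2, 65.7 and 78.9 kb in KO 2, KO 3 and KO 4. They covered 50.9, 59.2 and 53.1 kb in WT 1, WT 2 and WT 4. Every KO library lay above every WT library. The KO mean was 69.27 ± 8.44 kb and the WT mean 54.38 ± 4.3 kb (SD, n = 3 each), a ratio of 1.274 (exact two-sided permutation test, p = 0.1, the smallest that 3 against 3 allows). Without KO 4 the ratio was 1.185 (exact permutation p = 0.2). After division by each library's total covered length it was 1.113 and the groups overlapped (exact permutation p = 0.3).

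The genotypes stood apart in the chromosome 13 cluster. There, H3K27ac covered 48.7, 52.7 and 63.9 kb in KO 2, KO 3 and KO 4, and 37.3, 44.3 and 39.7 kb in WT 1, WT 2 and WT 4, with no overlap. In the chromosome 3 cluster the values were 14507, 12981 and 14966 bp in KO and 13550, 14872 and 13402 bp in WT, which overlapped. The chromosome 13 to chromosome 3 ratio within a library was 3.36, 4.06 and 4.27 in KO and 2.76, 2.98 and 2.96 in WT. It does not change with a scaling of the whole library, but it can change with the length of the peak list. All KO ratios were above all WT ratios (mean 3.897 ± 0.479 against 2.899 ± 0.124, SD, n = 3 each; exact two-sided permutation p = 0.1, the smallest possible). The KO mean ratio over the WT mean ratio was 1.344, and 1.21 at equal covered length. This comparison of clusters was chosen after the values were seen.

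**Figure D2:**
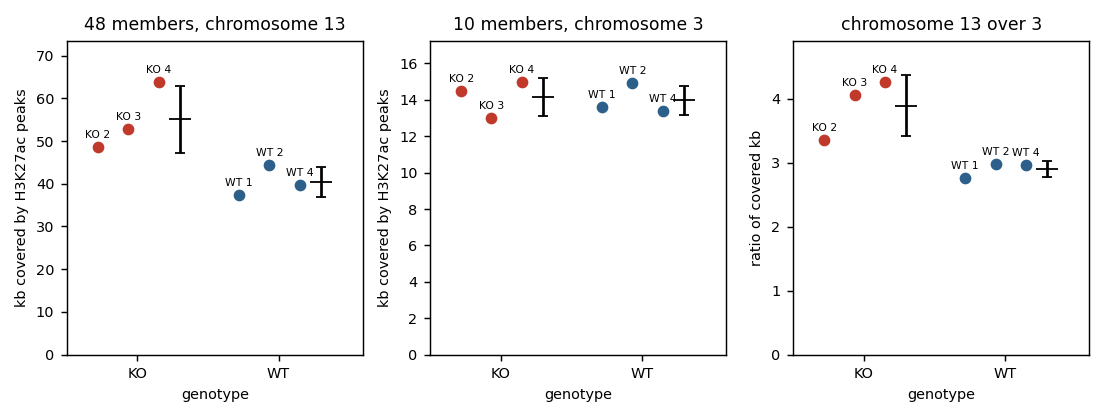
Kilobases of histone gene windows under H3K27ac peaks in each library, for 48 genes on chromosome 13 (left), 10 genes on chromosome 3 (middle) and their ratio (right), KO in red and WT in blue; the black mark and bar are mean and SD. On chromosome 13 the KO libraries reach 48.7 to 63.9 kb and the WT libraries 37.3 to 44.3 kb, while on chromosome 3 the genotypes overlap.

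Gene by gene, limma's moderated test across 14373 genes called 0 of 56 members with a varying H3K27ac value, and 0.0% of all genes in either direction (Benjamini-Hochberg adjusted p under 0.05). At an unadjusted p under 0.05, 17 members were higher in KO and 0 lower, against 5.18% of all genes higher and 1.02% lower. After division by total covered length 5 members were higher (622 genes higher and 818 lower, of 14409). With stricter peaks 9 were higher (532 genes higher and 140 lower, of 13645). Without KO 4 there were 10 (530 genes higher and 495 lower, of 13917). In each of these settings 0 members were lower. Every KO value exceeded every WT value in 22 of 56 members (39.3%), against 10.1% of all genes, and the reverse held for 0 members and 1.47% of all genes. All 22 lay on chromosome 13, among 46 varying members there, and 0 of 10 on chromosome 3. Counted once per merged stretch, 7 of 24 stretches had every KO library above every WT library, and 0 the reverse. The median KO minus WT difference was 9.11 percentage points for members and 0.96 for all genes tested. Of 74 other genes with a span of at most 1000 bp, whose windows are as short, 7 (9.46%) had every KO above every WT, with a median of 1.34 points. Without KO 4 the member count was 22 and the median 5.21 points, against 10.9% and 0.0 for all genes. Divided by total covered length, the count was 11 (19.6%) against 7.1% of all genes, and the median 5.66 against -0.08 points.

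**Figure D3:**
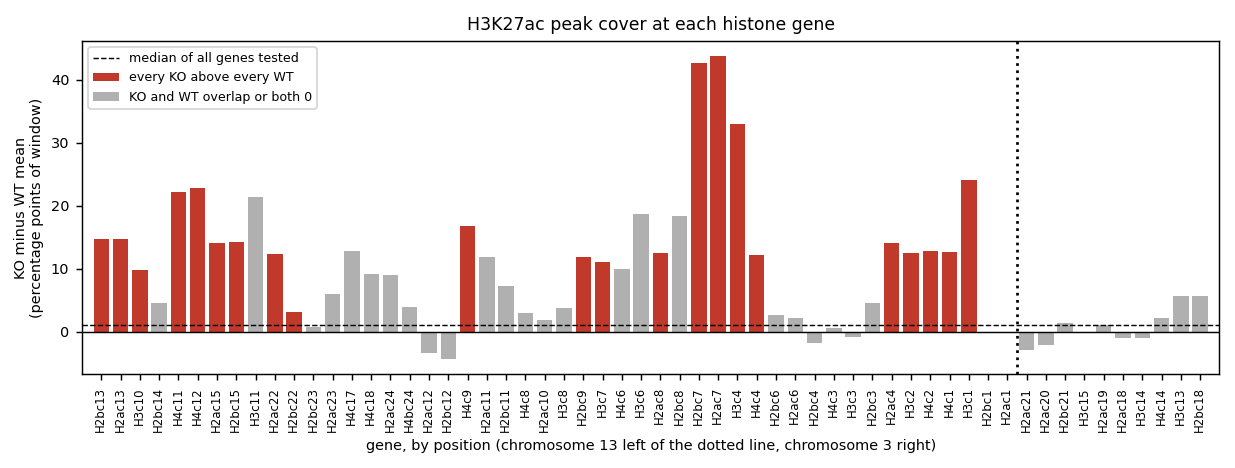
KO minus WT mean of the percent of each histone gene's window under H3K27ac peaks, in order of position; red bars are genes with every KO above every WT, grey bars the others, the dashed line the median of all genes tested (0.96 points). Red bars stand at 22 genes of chromosome 13 and at 0 of chromosome 3.

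Marker genes of liver cell types were read in the same H3K27ac lists. All 10 hepatocyte markers were covered in every library, with a sum of 105.74 to 122.96 kb in KO and 103.27 to 126.07 kb in WT. Of these, 0 had every KO above every WT, against 10.1% of all genes tested. Of 7 stellate cell markers 3 did (Des, Col1a1 and Pdgfrb), with a sum of 32.95 to 74.27 kb in KO and 16.6 to 33.25 kb in WT. Endothelial markers summed to 100.84 to 163.66 kb in KO and 104.38 to 121.7 kb in WT (1 of 7), and macrophage markers to 8.21 to 18.47 kb in KO and 6.68 to 13.29 kb in WT (1 of 8, with Marco and Vsig4 at 0). Cholangiocyte markers summed to 2.87 to 3.95 kb in KO and 2.14 to 2.46 kb in WT (1 of 5, with Krt19, Krt7 and Epcam at 0). The part of these cells in the histone gene values was not tested.

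All 4 core histone types had such members. Members with every KO above every WT were 6 of 17 H2A, 5 of 17 H2B, 5 of 12 H3 and 6 of 12 H4 genes, against 10.1% of all genes tested. H2ac1 and H2bc1, which had no peak, are counted here. The median differences were 5.9, 4.6, 10.4 and 12.4 points. For H4 genes together, 41.2%, 40.9% and 49.0% of the merged windows were covered in KO 2, KO 3 and KO 4, and 32.1%, 33.9% and 30.6% in WT 1, WT 2 and WT 4. For H2A genes the shares were 40.5%, 38.1% and 49.7% in KO and 30.5%, 39.0% and 34.7% in WT. For H3 genes they were 40.3%, 44.5% and 48.2% in KO and 27.7%, 38.1% and 32.8% in WT, and for H2B genes 24.5%, 25.9% and 30.9% in KO and 20.1%, 24.6% and 23.0% in WT. The genotypes did not overlap for H4 and H3 genes, and did for H2A and H2B genes.

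The widest differences sat in 1 neighbourhood of H2bc7, H2ac7 and H3c4, genes for H2B, H2A and H3. H2ac7 was covered over 60.4%, 68.7% and 96.0% of its window in KO 2, KO 3 and KO 4, and over 0.0%, 59.5% and 34.2% in WT 1, WT 2 and WT 4. WT 2 came close to KO 2, and WT 1 had no peak in this window. H2bc7, whose start lies 173 bases away in the opposite direction, had 75.6%, 75.2% and 100% in KO and 6.5%, 74.6% and 41.7% in WT. H3c4 had 50.1%, 63.0% and 66.0% in KO and 0.0%, 45.6% and 34.4% in WT. The 3 genes share peaks and are not independent, and limma gave adjusted p = 0.81 for H2ac7, 0.811 for H2bc7 and 0.8 for H3c4.

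The 3 members with the smallest adjusted p were H3c10, H3c1 and H4c1. The H3 gene H3c10 had 38.7%, 38.1% and 39.8% in KO 2, KO 3 and KO 4, and 30.2%, 28.8% and 28.5% in WT 1, WT 2 and WT 4. Its difference of 9.72 ± 0.844 points (SE) had the smallest adjusted p of any member (limma, 0.126). The H3K27ac region in its window, chr13:21715253-21717442, lies over H2bc13 and H2ac13 and ends before H3c10 starts (21717628). The value of H3c10 is thus that of a peak shared with this pair and cut at the window edge. H2ac13 differed by 14.71 points (limma, adjusted p = 0.569). H3c1, an H3 gene of the same cluster, had 74.7%, 82.7% and 79.9% in KO and 57.6%, 59.1% and 48.6% in WT (24.03 ± 3.61 points, adjusted p = 0.385). H4c1, its H4 neighbour, had 60.1%, 62.7% and 64.5% in KO and 52.4%, 49.2% and 47.6% in WT (adjusted p = 0.385). H4c1 and H3c1 share 1 H3K27ac region (chr13:23760375-23764182) and are not independent. In each of these windows both genotypes kept to a narrow range with a gap between them. H3c10 and H4c1 were named for their adjusted p after the values were seen.

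At 2 H4 genes acetylation was called mainly or only in KO. H4c12 had 660, 413 and 1936 bp under peaks in KO 2, KO 3 and KO 4 and 0 bp in each WT library. It was the only merged H3K27ac region at the members called in all KO and no WT libraries (620 such regions in the genome, and 0 of the reverse kind at members). The peaks of H4c12 were 3.04, 3.25 and 2.97 times background in KO 2, KO 3 and KO 4 by the authors' fold enrichment, where the median peak of those lists had 3.58, 3.36 and 2.91. H4c11, whose promoter is 87.6% identical, had 1286, 901 and 1435 bp in KO 2, KO 3 and KO 4, and 0, 686 and 0 bp in WT 1, WT 2 and WT 4. A WT 2 peak of 2.71-fold at H4c11 thus stood beside KO peaks of 3.02, 3.28 and 3.08-fold. Neither gene passed limma (adjusted p = 0.713 for H4c11 and 0.81 for H4c12). Both genes carried H3K4me3 in either genotype.

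H3K4me3 was called at 53 member windows in KO 4 (91.4%, against 57.8% of all genes) and 52 in WT 2 (89.7%, against 55.5%), and covered 40.5 kb and 38.2 kb of the merged windows. With 1 library per genotype there is no replicate check and no test. H2bc6, H2bc4, H2ac20 and H2ac21 had the most bases covered: H2bc6 had 4879 bp in KO and 5088 bp in WT, H2bc4 3328 and 3601 bp, and the H2ac20 and H2ac21 pair 2662 bp in KO and 2847 bp in WT. All were slightly lower in KO. Cover was at least 1.5 times as large in KO at 16 of 53 members, against 10.1% of covered genes, and at least 1.5 times as large in WT at 5, against 11.3%. H2ac7 was among the 16, with 962 bp in KO and 348 bp in WT. The H4 gene H4c2 had 568 bp in KO and 0 bp in WT and was the only member covered in 1 genotype. On chromosome 13 H3K4me3 covered 32134 bp in KO and 29046 bp in WT, and on chromosome 3 8355 bp in KO and 9159 bp in WT. The KO list covered 19.06 Mb in all and the WT list 21.68 Mb.

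H3K27me3 was called at 0 of 58 members in KO150 and in WT156. Of all genes, 12.2% had a peak in KO and 11.1% in WT. Most member windows are short, so the shares are not on a like footing. Over promoters alone, H3K27me3 touched 0 of 54 member promoters in each library. Of all promoters it touched 1.6% in KO150 and 1.0% in WT156. Whether the members differ from these low shares was not tested.

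PPARg peaks were called at few histone gene windows. Members with a peak in every KO library were 10 (17.2%, against 29.1% of all genes), and in every WT library 3 (5.2%, against 19.5%). These shares are not on a like footing, since member windows are short. Over promoters alone, the member shares were 9.3% and 5.6% in KO7 and KO8, against 6.8% and 6.3% of all promoters. In WT 2 and WT 4 they were 1.9% and 3.7%, against 6.5% and 5.7%. The merged windows held 7.7 and 7.8 kb under peaks in KO7 and KO8, and 1.1 and 1.9 kb in WT 2 and WT 4. The genotypes did not overlap, with a ratio of 5.119 (exact two-sided permutation p = 0.33, the smallest that 2 against 2 allows). The lists also differed as a whole: PPARg peaks covered 20.77 and 21.11 Mb in KO and 9.0 and 6.9 Mb in WT. Divided by that length the ratio was 1.849, and with all lists shortened to equal length by q it was 0.389, with overlap. WT 4 was a ligation library; among the tagmentation libraries alone (KO7 and KO8 against WT 2) the ratio was 6.789.

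In limma, 4 of 19 members with a varying PPARg value were higher in KO and 0 lower, against 23.7% of genes called higher and 0.256% lower, so the members' share was near that of all genes. Every KO value exceeded every WT value in 8 of the 19 and the reverse held for 0, against 68.8% and 1.42% of all genes. H2ac18, an H2A gene of chromosome 3, had 33.9% and 36.3% of its window covered in KO7 and KO8, and 4.6% and 7.4% in WT 2 and WT 4 (29.1 ± 1.54 points, adjusted p = 0.0172). H3c14, the H3 gene beside it, had 12.2% and 13.7% in KO and 0.0% and 3.0% in WT (adjusted p = 0.0318). The H2B gene H2bc4 had 14.5% and 21.3% in KO and 0.0% in both WT libraries (adjusted p = 0.0422), and H2bc22 had 1.7% and 1.9% in KO and 0.0% in WT (adjusted p = 0.0321). Each was separated between genotypes. None of the 4 calls held when values were divided by total covered length or when either WT library was left out; those fits called 0 members. Leaving out KO7 or KO8 leaves 1 KO library, so only the size of the differences is given. Without KO7 the median difference was 6.64 points for the members tested and 1.8 for all genes. Without KO8 it was 7.93 and 1.76, and with all libraries 3.94 and 1.58, over member windows that are short. H4c14, H2ac10 and H3c8 also had KO values above WT, with adjusted p of 0.114, 0.0745 and 0.0745. H4c8, an H4 gene, had 18.4% and 8.6% in KO and 15.9% and 11.9% in WT, which overlapped.

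Counted as regions, PPARg had 4 regions at members that both KO libraries held and no WT library did. It had 3 regions in all 4 libraries (near H4c8, H2ac18 and H4c14) and 0 in both WT libraries only. The KO-only count was 9 of 14 regions without KO7, against 40.02% of regions in the whole genome. Without KO8 it was 10 of 16, against 40.92%. With all libraries it was 4 of 19, and in the whole genome 17.9% of regions were then of the KO-only kind. No test was made of these counts. The KO-only region in H2bc4 had fold enrichments of 14.03 in KO7 and 10.67 in KO8, that in H2bc22 4.93 and 6.31, and that near H3c8 5.01 and 6.74. The highest lay 1472 bases past the end of H4c11 (chr13:21736929-21738710), at 40.58 in KO7 and 23.02 in KO8, with no peak in WT 2 or WT 4. It ranked within the upper 3.45% of KO7 peaks and the upper 8.94% of KO8 peaks.

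CTCF was called at 11 of 58 members in some library, against 46.4% of all genes. Member windows are short, so these shares are not on a like footing. The merged windows had 3.7 and 4.5 kb under peaks in KO160 and KO163, and 5.6 and 3.6 kb in WT164 and WT165. These ranges overlapped (ratio 0.901, exact two-sided permutation p = 1.0; 1.158 without WT164). All 6 CTCF regions found in both WT libraries, near H2bc13, H4c11, H2bc11 and H3c6 and within H2bc6 and H4c3, were found in both KO libraries too. None was lost and none gained; over the whole genome 13.5% of regions called in both WT libraries were lost, and 6 regions are too few to tell the members from that share. With a call required to span 50% of the region, 1 of 3 was lost, against 23.1% over the whole genome. With WT165 left out 3 of 9 were lost, against 26.2%. In the CTCF lists 3 weaker regions, at H4c6, H4c3 and H2ac4, were called in WT164 alone, and 1 in H2bc6 in KO160 alone.

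The heights of these 6 regions were compared as values only, with no test. At the H4c3 region the authors' fold enrichment was 12.74 and 13.3 in KO160 and KO163, and 16.24 and 15.64 in WT164 and WT165, so KO was lower. Within H2bc6 it was 16.31 and 14.96 in KO and 11.91 and 10.05 in WT, so KO was higher. At H4c11 it was 9.53 and 10.56 in KO and 8.98 and 9.36 in WT. At H2bc13, H2bc11 and H3c6 the genotypes overlapped. By covered window, H4c3 had 13.3% and 10.4% in KO and 25.6% and 22.6% in WT (adjusted p = 0.286). H2ac11 had 13.8% and 14.5% in KO and 19.3% and 17.6% in WT (adjusted p = 0.337), and H2bc11 13.8% and 14.6% in KO and 24.4% and 17.7% in WT. H4c11 was the only member with CTCF cover higher in each KO library, at 11.6% and 17.2% in KO and 9.4% and 8.0% in WT. limma called 0 of 11 members and 0.0% of 10160 genes; at an unadjusted p under 0.05, 2 members, H4c3 and H2ac11, were lower and 0 higher, against 10.2% of genes lower and 0.846% higher. The direction turned after division by total covered length (2 members higher and 0 lower, against 575 and 702 of 10160 genes). The median difference was -2.52 points for the members tested and -0.41 for all genes. It was -2.52 and -0.32 without KO160, and -3.05 and -0.51 without KO163. Without WT164 it was 2.29 and -0.15, and without WT165 -5.04 and -0.69.

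**Figure D4:**
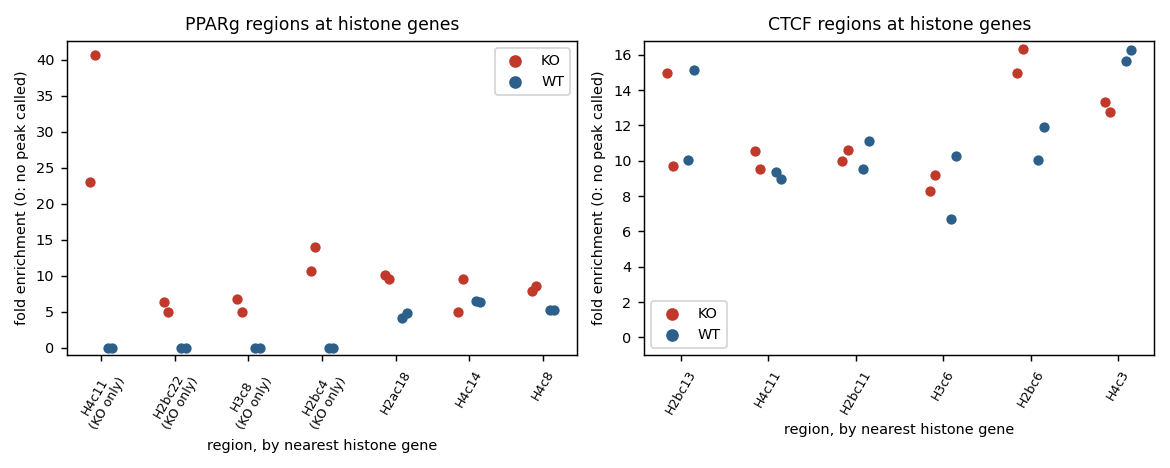
Fold enrichment given by the authors for each PPARg region called in both KO libraries only or in all 4 libraries (left) and each CTCF region called in all 4 (right), named by the nearest histone gene, KO in red and WT in blue; 0 means no peak called. The PPARg region near H4c11 reaches 40.58 and 23.02 in KO with no WT peak, and CTCF is lower in KO at H4c3 and higher in KO at H2bc6.

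Around H4c11, peaks of 4 targets lay within a few kilobases. A CTCF peak lay ahead of the gene in all 4 libraries, from 960 to 449 and 1165 to 405 bases before the start in KO160 and KO163, and from 963 to 549 and 916 to 561 bases before it in WT164 and WT165. H3K27ac spanned the start in KO 2, KO 3, KO 4 and WT 2. H3K4me3 spanned it in KO 4 and in WT 2. The PPARg peak ran from 1895 to 3676 bases past the start in KO7 and from 2218 to 3674 in KO8. A second H3K27ac peak lay within those bounds in KO 3 (2689 to 3211 bases) and KO 4 (2755 to 3261 bases), and in none of the WT libraries.

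**Figure D5:**
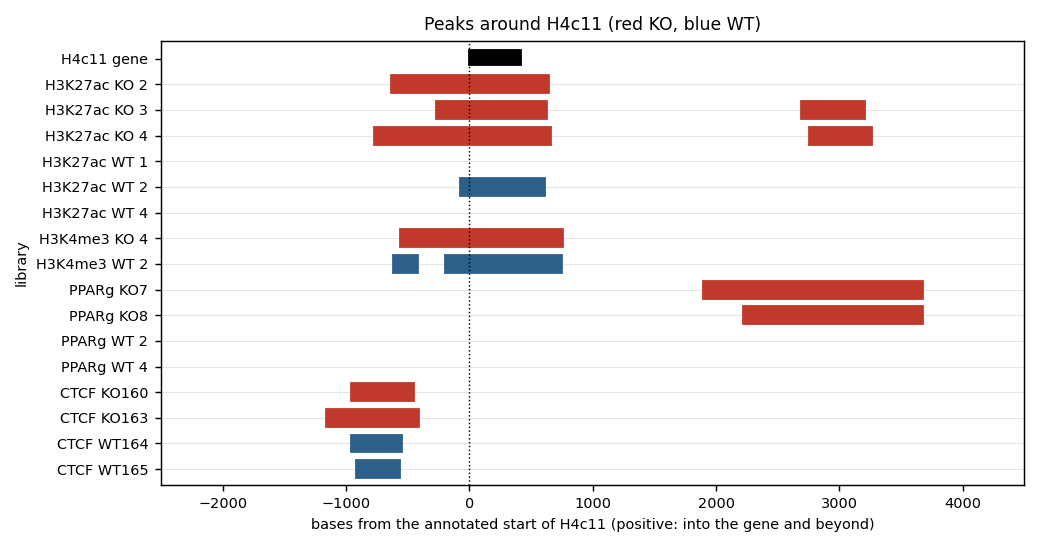
Peaks within 2500 bases before and 4500 bases after the annotated start of H4c11 in each library of 4 targets (rows, KO in red above WT in blue), with the gene as a black bar. CTCF peaks lie before the start in all 4 libraries, and PPARg peaks past the gene in the 2 KO libraries only.

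At promoters in the narrow sense (300 bases), H3K27ac peaks touched 45, 41 and 45 of 54 member promoters in KO 2, KO 3 and KO 4, and 31, 44 and 33 in WT 1, WT 2 and WT 4. WT 2 was thus within the KO range. Over all promoters the shares were 47.9%, 49.3% and 54.3% in KO and 48.4%, 50% and 46.7% in WT. H3K4me3 touched 38 member promoters in KO 4 (70.4%, against 49.1% of all promoters) and 37 in WT 2 (68.5%, against 48.2%). PPARg touched 5 and 3 in KO7 and KO8, and 1 and 2 in WT 2 and WT 4; over all promoters the shares were 6.8% and 6.3% in KO and 6.5% and 5.7% in WT. CTCF touched 0 in both KO libraries, 2 in WT164 and 0 in WT165, where all promoters gave 4.8% and 4.7% in KO and 6.4% and 5.6% in WT.

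Other genes of the histone pathway were read in the same way. In H3K27ac, limma called 0 genes of any of these lists. Every KO exceeded every WT in 1 of 18 varying linker and replacement histone genes, 4 of 21 genes of histone gene transcription and mRNA processing, 2 of 20 S phase and division genes and 1 of 16 neighbour genes inside the clusters. All genes gave 10.1%. The linker histone gene H1f0 had 79.5%, 72.6% and 81.2% of its window covered in KO and 91.0%, 82.5% and 86.5% in WT, the reverse order. H1f1, which lies inside the chromosome 13 cluster, had 47.8%, 53.0% and 48.6% in KO and 38.9%, 43.2% and 34.7% in WT. Npat, the coactivator gene, had 3.9%, 4.4% and 6.4% in KO and 5.2%, 5.4% and 4.2% in WT, and Slbp, for the stem-loop binding protein, 24.6%, 28.2% and 30.6% in KO and 25.3%, 22.2% and 22.6% in WT. Both overlapped. Those of the processing list with every KO above every WT were Cdk2, Eri1, Lsm11 and Srrt. Of the S phase list they were Ccna2, with 4.6%, 5.4% and 7.4% in KO and 4.4%, 2.6% and 0.0% in WT, and Pcna, the replication clamp, with 36.6%, 39.1% and 42.3% in KO and 33.5%, 34.4% and 22.7% in WT. The division genes Top2a and Mki67 had little cover, with 0.0%, 0.0% and 0.6% in KO and 0.0% in each WT library for Top2a, and 0.0%, 1.9% and 4.4% in KO and 0.0%, 0.0% and 1.9% in WT for Mki67. In PPARg, limma called higher in KO 2 of 9 tested replacement and linker histone genes (H3f3b and Cenpa), 2 of 9 of the processing list (Cpsf3 and Cpsf2), 4 of 7 S phase genes (Tk1, Rrm2, Mcm2 and Cdt1) and 3 of 11 neighbours (Hfe, Slc17a2 and Slc17a3), against 23.7% of all genes. No gene was called after division by total covered length or without either WT library. CTCF gave 0 calls in these lists.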

How the data were processed

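The 18 deposited peak lists, 1 per library, were used. Tools and build per the submitters' processing notes were MACS2 2.1.2, BWA 0.7.12, Picard 1.77, deepTools 3.1.3 and mm10, with no role given. Each peak carries the authors' fold enrichment, a ratio, and their −log10 p and −log10 q values; the authors' score was not used. Per their names, the CTCF lists were freed of blacklisted regions and patches. The lowest −log10 q of the deposited lists was near 1 (H3K27ac, H3K27me3), 1.31 (PPARg WT 4), 1.32 and 1.31 (H3K4me3) and 3 (the others).

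H3K4me3 intervals listed per summit were collapsed, and peaks off the autosomes, X and Y were dropped. Genes, symbols and promoters came from RefSeq on GRCm38.p6. The percent of each gene window covered was fitted with limma 3.58.1 in R 4.3.3 over every gene with variation, with no scaling. The fit was also run on simulated data as a check of the code. Their spread was fixed and smaller than that of some members, so the run does not show how the test behaves on these data. Regions of 1 target were merged at an overlap of 1 bp. Scripts ran in Python 3.11.15 with Biopython 1.88, which aligned promoters globally. The members and lists were chosen with earlier results of these data known. The rule for named genes took members past limma, those with the largest mean cover per target, those with no overlap between genotypes by size of difference (up to 6 each way), those covered in 1 genotype, those without peaks, those nearest KO-only PPARg and any CTCF regions, and H4c11, plus the first genes of each list and those past a test. Alternatives tried were 5 kb windows, stricter q, equal peak number, division by total covered length, genes covered in at least 50% of libraries, a stricter overlap, a replicate block and leaving out each library. Equal covered length, lists without long members and the cluster ratio were added after seeing the data. A further marker list is not reported here.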

Additional observations from a re-analysis of the deposited data

How the results depend on the processing

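The H3K27ac ratio over members stayed above 1 under every alternative run, from 1.113 (divided by total covered length) to 1.333, and from 1.185 to 1.333 with each library left out. limma called 0 members for H3K27ac and 0 for CTCF under each alternative run. The count of members with every KO above every WT in H3K27ac was 22 (39.3%, against 10.1% of all genes). It ranged from 22 without KO 4 (39.3%, against 10.9%) to 32 without KO 2 (57.1%, against 30.1%). It was 16 with stricter peaks (28.6%, against 7.91%) and 15 at equal covered length (26.8%, against 7.09%). After division by total covered length it was 11 (19.6%, against 7.1%). The H3K27ac cluster ratio of 1.344 (KO over WT) was 1.21 at equal covered length and 1.263 with 5 kb windows. It was 1.324 with stricter peaks and 1.335 at equal peak number, and ranged from 1.28 to 1.437 with a library left out. For H3K4me3 the ratio of 1.06 became 1.205 after division by total covered length and 1.319 at equal covered length. The PPARg ratio reversed to 0.389 at equal covered length, and ranged from 4.108 to 6.789 with a library left out; with stricter peaks WT was 0 and no ratio is given. PPARg calls were 10 with 5 kb windows, 2 with stricter peaks, 2 at equal peak number, 0 after division by total covered length and 0 to 9 with a library left out. With 5 kb windows the PPARg calls were 10 of 29 members tested, against 2572 of 9023 genes called higher. With stricter peaks they were 2 of 6, against 1133 of 5089 genes. At equal peak number they were 2 of 13, against 640 of 6676 genes. A PPARg fit with a library left out has 1 library in a group, so its count is not set against all genes. KO-only PPARg regions were 2 of 10 at equal peak number, against 8.76% of regions in the genome. They were 4 to 10 with a library left out, where the genome share was 23.49% to 40.92%. The CTCF ratio reversed to 1.002 at equal peak number, 1.204 after division by total covered length and 1.19 at equal covered length, and ranged from 0.738 to 1.158 with a library left out. Lost CTCF regions were 1 of 3 under the 50% overlap rule (23.1% in the genome). They were 0 to 3 with a library left out, where the genome share was 17.8% to 26.2%. The causes were not tested. With the replicate block, limma called 0 H3K27ac members. At an unadjusted p under 0.05, 13 members were then higher in KO and 0 lower, against 216 genes higher and 75 lower of 14373. Only the numbers 2 and 4 are shared by both genotypes, and their deviations correlated at -0.208 and -0.2. The numbers were not taken to pair libraries. A lone library left by leaving 1 out is assumed to vary like the other group. Peak lists hold no read depth, so a window without a peak may hold signal under the authors' threshold, and lists of unequal length differ in how much they call.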
